A study of Mus musculus with 9 samples.

Results

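Interferon-stimulated genes, the genes that cells switch on when interferon binds its receptors, were followed in mouse brain after a transient stroke with and without an injection of vascular endothelial growth factor (VEGF). The list held 48 genes, and a gene was measured through every non-control probe of the array whose RefSeq accession maps to it. Of the 48 genes, 46 had a probe, 60 probes in all out of 55681 on the array, and all 46 passed the filter on dim probes. Mx1 and Mx2 had no matched probe and are not analysed here. The 46 genes form part of 30837 genes and other probe targets tested together, of which 17589 carry a gene symbol.

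The study compared 3 groups of adult male C57BL/6 mice aged 50 to 53 days on 9 single-colour Agilent arrays, 3 arrays per group. In VEGF mice the middle cerebral artery was blocked for 90 min, and 3 h after reperfusion 1 µl of the recombinant human protein rhVEGF-A165, at 10 µg/ml, was injected into the right lateral ventricle. MCAO mice (named for middle cerebral artery occlusion) had the same occlusion and 1 µl of the phosphate-buffered saline vehicle by the same route and at the same time. Sham mice underwent sham surgery, and the labels mention no injection in them. Occlusion and injection into the ventricle therefore cannot be told apart in a comparison with sham. Brains were taken 24 h after reperfusion, which was 21 h after the injection, and the labels do not state which part or side of the brain was used. The arrays therefore hold whole tissue RNA, in which more cells of a type and more RNA per cell cannot be told apart.

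Type I interferons act through the receptor formed by Ifnar1 and Ifnar2, whose kinases Jak1 and Tyk2 phosphorylate Stat2. A complex that contains Stat2 and Irf9 then binds the interferon-stimulated response element (ISRE) in the promoters of target genes. Interferon gamma uses another receptor, Ifngr1 with Ifngr2, and acts mainly through the gamma-activated site (GAS). The targets encode nucleic acid sensors, further transcription factors, proteins that block virus entry, translation or release, and GTPases that attack intracellular pathogens. In the brain they are known from microglia, blood-derived myeloid cells, endothelium and astrocytes that respond to infection or injury.

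An ISRE sequence was more frequent in promoters of the members than in all promoters, though many members lacked it. Promoter sequences from RefSeq (GRCm38.p6), each covering 250 bases before and 50 bases after a gene start, were available for 38 of the 48 genes, with 47 promoters between them. The ISRE core, spelled as GAAA followed by any 2 bases and GAAA again, or its complement on the other strand, was present in 22 of these 47 promoters (46.8%), against 1131 of all 32851 promoters in the table (3.44%). A shorter core, GAAANNGAA, which the first one contains, was present in 24 of the 47 (51.1%), against 8.56% of all promoters. The GAS core TTCNNNGAA, which reads the same on both strands, was present in 11 of the 47 (23.4%), against 8.30%. By gene, 20 of 38 had at least 1 ISRE core. These matches describe letters in a window and do not show that a factor was bound.

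The 11 stretches below are shown because they belong to members whose values are described in the results. Each reads 5′ to 3′ on the strand of its gene, with the ISRE core or overlapping cores in capitals and flanking bases in lower case. Positions are RefSeq coordinates on GRCm38.p6, and all stretches end before the gene start, so they lie in the promoter and not in a transcript of that gene.
Isg15, chr4:156200855-156200916, minus strand: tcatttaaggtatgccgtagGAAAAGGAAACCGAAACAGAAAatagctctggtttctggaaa
Bst2, chr8:71537567-71537622, minus strand: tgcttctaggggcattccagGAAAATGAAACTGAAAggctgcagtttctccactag
Ifit1, chr19:34640765-34640833, plus strand: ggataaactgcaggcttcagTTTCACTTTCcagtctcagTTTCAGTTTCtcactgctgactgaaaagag
Ifit3, chr19:34583353-34583436, plus strand: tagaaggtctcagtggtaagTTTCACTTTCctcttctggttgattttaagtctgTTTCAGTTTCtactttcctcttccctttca
Oas1a, chr5:120907526-120907565, minus strand: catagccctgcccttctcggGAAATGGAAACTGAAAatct
Oas3, chr5:120777705-120777754, minus strand: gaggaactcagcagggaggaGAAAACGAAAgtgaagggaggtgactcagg
Rsad2, chr12:26456543-26456592, minus strand: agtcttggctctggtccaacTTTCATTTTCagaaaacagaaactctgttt
Ifitm2, chr7:140955978-140956027, minus strand: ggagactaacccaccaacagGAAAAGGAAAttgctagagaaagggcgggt
Gbp2, chr3:142620584-142620633, plus strand: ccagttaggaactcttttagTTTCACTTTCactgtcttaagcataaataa
Igtp, chr11:58199502-58199551, plus strand: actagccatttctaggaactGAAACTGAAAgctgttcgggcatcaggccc
Irgm1, chr11:48871421-48871470, minus strand: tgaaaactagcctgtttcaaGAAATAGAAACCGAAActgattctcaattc

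Isg15 had the most copies, 3 overlapping cores in 1 run, and Bst2, Oas1a and Irgm1 each had 2 overlapping cores. The Ifit1 and Ifit3 promoters each held 2 separate cores, with the same letters in both, TTTCACTTTC farther from the start and TTTCAGTTTC nearer to it. No ISRE core was found in the promoter windows of Slfn1, Slfn2, Slfn4, Ifitm1, Irf7 or Oasl1, which are among the genes with large differences described below.

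**Figure D1:**
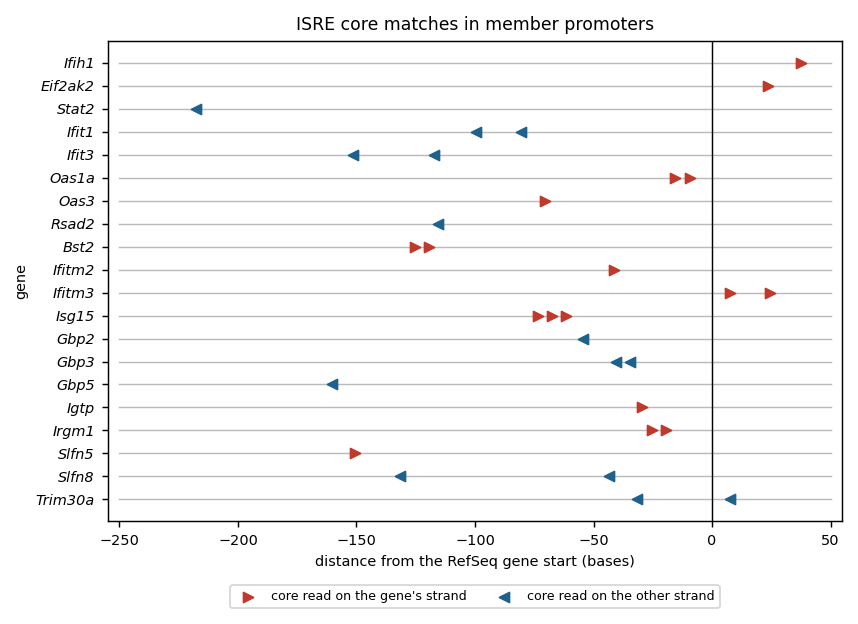
Positions of ISRE core matches in the promoter windows of the 20 genes that hold at least 1, as distance in bases from the RefSeq gene start (vertical line). Grey lines span the 300-base window; red triangles point right for a core on the strand of the gene and blue triangles point left for a core on the other strand. Most matches lie before the start, and a few genes, such as Ifih1 and Eif2ak2, hold theirs after it.

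Levels are given as log2 of the processed intensity minus the 75th percentile of that array, so 0 is a probe as bright as that percentile and 1 unit is a 2-fold step. The 75th percentile lay between 848 and 2070 intensity units, 73.0% to 81.8% of the spots that are not controls passed Agilent's flag for a signal well above background, and 0 spots were saturated. VEGF array 1 and MCAO array 1 stood apart from the other 4 ischaemic arrays. Each of 8 neuron and 7 astrocyte markers was well above background on at least 1 array of every group. The median of the neuron markers lay 2.30 below the sham mean on VEGF array 1 and 2.43 below it on MCAO array 1, and 0.25 to 0.69 below it on the other 4. All 6 ischaemic arrays lie on 1 slide and the 3 sham arrays on another, so slide and ischaemia cannot be told apart. MCAO array 1 was also scanned on another day. Counts over all members are therefore given with these 2 arrays and without them.

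The interferon-stimulated genes were higher in both ischaemic groups than in sham. The median of the 46 members lay 2.92, 2.15 and 1.21 above the sham mean on VEGF arrays 1 to 3 and 3.25, 1.81 and 2.59 above it on MCAO arrays 1 to 3, against -0.16, 0.26 and -0.08 on the sham arrays. Every ischaemic array lay above every sham array by this measure. In limma's moderated test with Benjamini-Hochberg adjustment over all targets, 13 members passed an adjusted p of 0.05 as higher in VEGF than in sham and 0 as lower. Of all targets tested, 2.07% were called higher and 0.357% lower in that comparison. In MCAO against sham, 27 members were called higher and 0 lower, where 2.28% of all targets were called higher and 0.535% lower. Oas3, Slfn1 and Slfn4, called in both comparisons, were well above background on no sham array. They passed the filter on dim probes only through the ischaemic groups, so their calls are not separate evidence of a rise. Of the 42 members well above background on all 9 arrays, 10 were called in VEGF and 24 in MCAO against sham. Under that filter 1.85% and 2.08% of all targets were called higher. The comparisons share the sham arrays, and a gene called in one and not in the other is not shown to differ between them.

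Counts that do not depend on the adjustment were closer to each other. At an unadjusted p under 0.05, 39 members were higher in VEGF than in sham (12% of all targets) and 42 were higher in MCAO than in sham (12.1% of all targets), and 0 were lower in either comparison, where 11.4% and 9.28% of all targets were lower. All 3 VEGF arrays lay above all 3 sham arrays for 41 members (18.2% of all targets), and all 3 MCAO arrays for 44 (19.6% of all targets). Cmpk2 was the only member below every sham array on all 3 VEGF arrays. The median log2 difference of the members was 2.12 in VEGF against sham, where that of all targets was -0.12, and 2.48 in MCAO against sham, where that of all targets was -0.04.

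The number of called members moved with which arrays entered the fit. Without VEGF array 1 and MCAO array 1, 30 members were called higher in VEGF against sham (8.76% of all targets) and 41 in MCAO against sham (9.79% of all targets), and 11.3% and 13% of all targets were called lower. All 13 and all 27 of the members called with these arrays were among them. The differences of Gbp6 were then 1.32 and 1.04, those of Samd9l 0.16 and 0.46, and in VEGF against sham those of Dhx58 and Iigp1 were 0.91 and 0.24. Leaving out 1 array at a time gave, for VEGF against sham, 9, 10 and 22 called members without VEGF arrays 1, 2 and 3, then 27, 11 and 9 without MCAO arrays 1, 2 and 3, and 5 without any 1 of the sham arrays. For MCAO against sham the counts were 38, 21 and 28 without VEGF arrays 1, 2 and 3, then 13, 19 and 8 without MCAO arrays 1, 2 and 3, and 5, 10 and 6 without sham arrays 1, 2 and 3. The share of all targets called higher moved as well, between 0.473% (without sham array 1) and 5.3% (without MCAO array 1) in VEGF against sham and between 0.568% (without sham array 1) and 6.07% (without VEGF array 1) in MCAO against sham. Singled out after their values were seen, Gbp2, Ifitm1, Irgm1, Slfn1 and Slfn4 were the 5 members called against sham in both ischaemic groups whichever 1 array was left out. For Slfn1 and Slfn4 this rests on sham signals not well above background and on a filter passed only through the ischaemic groups. With normexp correction both calls of Slfn1 and the VEGF call of Slfn4 were lost. Every other call against sham was lost with at least 1 of the 9 arrays left out. No member changed sign against sham in any of the 19 alternative settings.

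**Figure D2:**
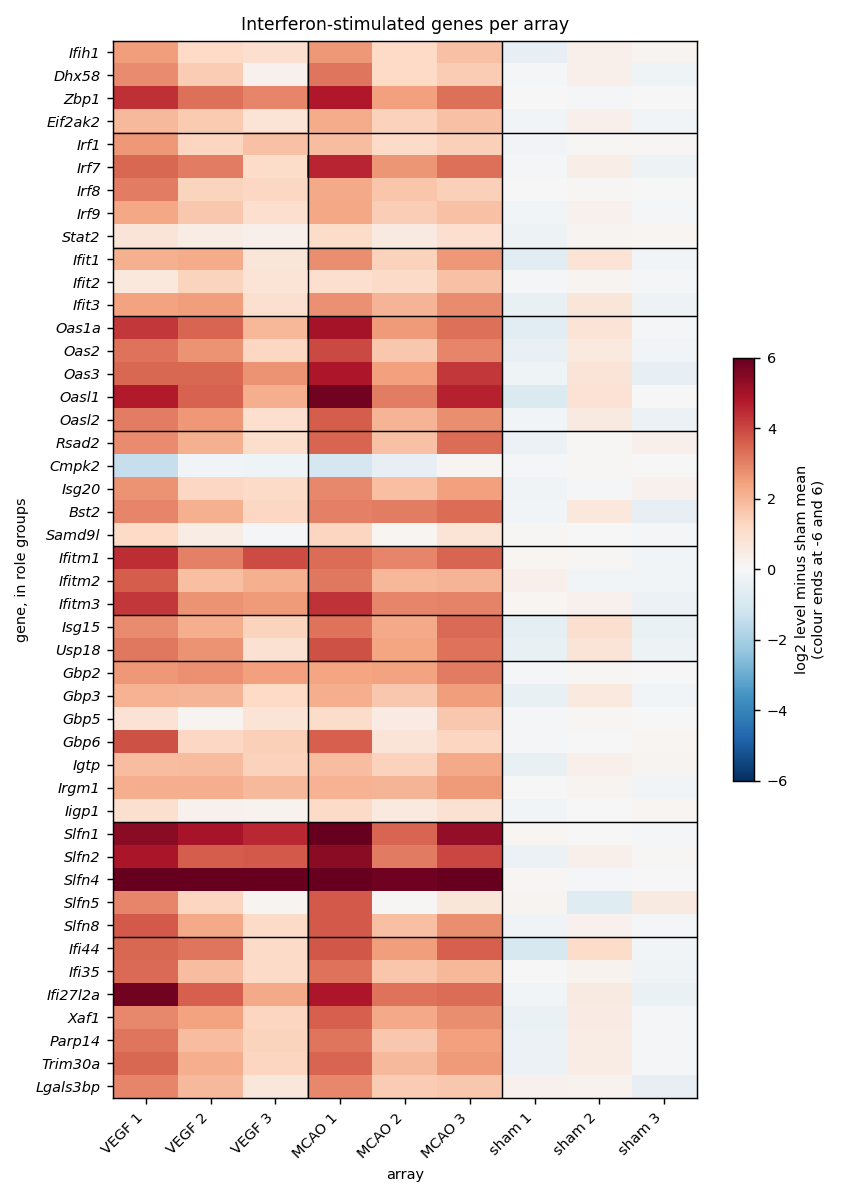
Log2 level of each of the 46 measured members on each of the 9 arrays, minus that gene's sham mean; rows are genes in role groups separated by lines, and columns are VEGF, MCAO and sham arrays. Red is above and blue below the sham mean, and colour ends at -6 and 6, which Slfn4 exceeds. Nearly all rows are red in the 6 ischaemic columns, with the palest red on VEGF array 3, and the Cmpk2 row is mostly blue there.

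Many markers of blood-derived myeloid cells were higher in the ischaemic groups too. For every count of called genes against sham below, the shares of all targets are 2.07% higher and 0.357% lower in VEGF. In MCAO they are 2.28% higher and 0.535% lower. At an unadjusted p under 0.05, the shares higher are 12% in VEGF and 12.1% in MCAO. Of 7 measured monocyte and macrophage markers, 5 were called higher in VEGF than in sham and 5 in MCAO than in sham. The median of those 7 lay 4.18 to 6.04 above the sham mean on the VEGF arrays and 4.32 to 5.42 above it on the MCAO arrays, against -0.04 to 0.00 in sham. The summed linear level of the list was 384 to 845 on the VEGF arrays and 372 to 536 on the MCAO arrays, against 379 to 397 in sham. Most of that sum is the signal of F10, which was not called, and without F10 the sum was 17.2 to 63.0 on the VEGF arrays and 15.8 to 56.8 on the MCAO arrays, against 0.821 to 0.864 in sham. On no sham array was Msr1, a macrophage scavenger receptor, well above background, and Ccr2 was so on 1. Both passed the filter on dim probes only through the ischaemic groups. Of 8 neutrophil markers, 5 were called higher in each comparison with sham, with medians 4.44 to 7.03 above the sham mean on the VEGF arrays and 4.22 to 7.05 above it on the MCAO arrays, against -0.65 to 0.44 in sham. Their summed level was 101 to 224 on the VEGF arrays and 108 to 247 on the MCAO arrays, against 82.4 to 105 in sham, and without the bright marker Csf3r it was 18.1 to 108 and 15.8 to 133, against 0.756 to 2.06 in sham. On no sham array was Cxcr2 or Mmp8 well above background, and Retnlg was so on 2. These markers passed the filter on dim probes only through the ischaemic groups. The 3 neutrophil markers not called were Camp, at -0.40 in VEGF against sham and -0.31 in MCAO against sham, Csf3r, at -0.17 and 0.19, and Ngp, at 0.81 and -0.19.

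Microglia markers moved in both directions, with 0 of 8 called higher and 1, P2ry12, called lower in each comparison with sham. Their median lay 0.33 to 0.70 above the sham mean on the VEGF arrays and -0.13 to 0.39 on the MCAO arrays, against -0.10 to 0.02 in sham, and their summed level was 120 to 248 on the VEGF arrays and 142 to 151 on the MCAO arrays, against 77.4 to 83.2 in sham. Endothelial markers had medians of 0.47 to 2.67 on the VEGF arrays and 0.44 to 2.11 on the MCAO arrays, highest on array 1 of each group, against -0.01 to 0.06 in sham, with 0 of 8 called higher and 1 lower in each comparison. Of 7 measured T and NK cell markers, 2 were called higher in each comparison with sham. Of the 5 markers of plasmacytoid dendritic cells, the cells best known for making type I interferon, the 1 called higher was Bst2, which is itself a member here. The part of these cell types in the members' differences was not tested.

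**Figure D3:**
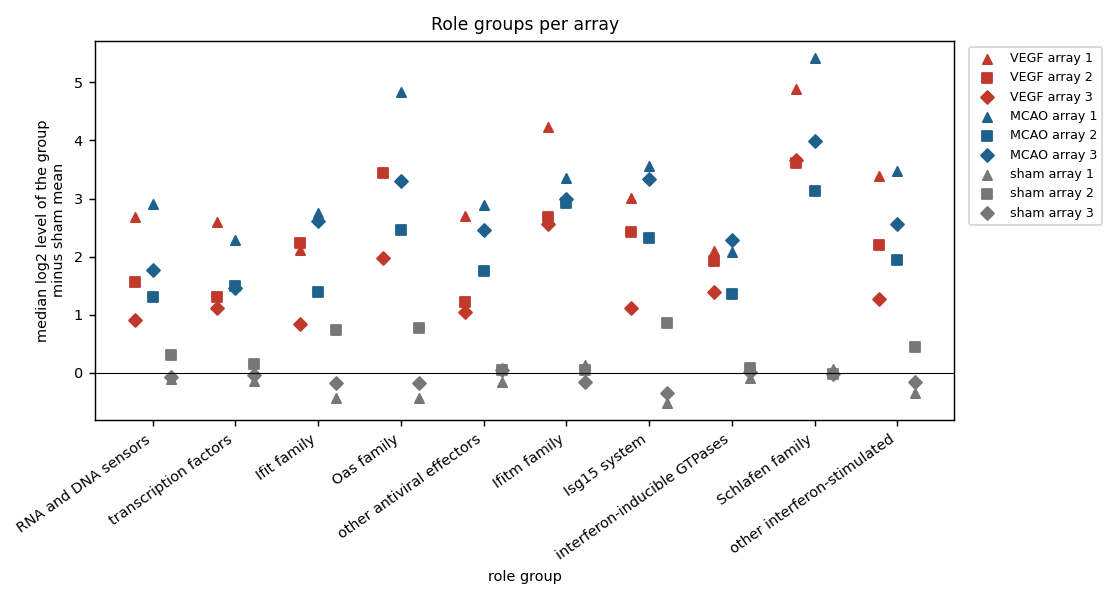
Median log2 level of each role group on each array, minus the sham mean (vertical axis), for the 10 role groups (horizontal axis); red is VEGF, blue MCAO and grey sham, and the marker shape gives the array number. In each role group the 6 ischaemic arrays lie above the 3 sham arrays. Sham levels of Oas3, Slfn1 and Slfn4 were not well above background, so the Oas and Schlafen medians rest in part on sham values that are only bounds.

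Among the nucleic acid sensors, 1 of 4 was called higher in VEGF than in sham and 2 of 4 in MCAO than in sham. Zbp1, which detects nucleic acids in the left-handed Z form, stood at 1.12, 0.07 and -0.32 on VEGF arrays 1 to 3 and at 1.55, -0.81 and 0.06 on MCAO arrays 1 to 3, against -3.22, -3.31 and -3.22 on the sham arrays. The sham arrays were close together and every ischaemic array lay far above them. Zbp1 rose by 3.54 ± 0.58 (log2 difference and standard error of the fit, n = 3 arrays per group) in VEGF against sham (limma, adjusted p = 0.0193) and by 3.52 ± 0.58 in MCAO against sham (adjusted p = 0.0185). A second Zbp1 probe, dimmer, gave 4.71 and 5.31 in the same comparisons. Eif2ak2, the kinase PKR that stops translation when it meets viral RNA, rose by 1.79 ± 0.34 in MCAO against sham. Ifih1 and Dhx58, the related RNA sensors MDA5 and LGP2, were not called, at 1.57 and 1.56 in VEGF against sham and 1.86 and 1.97 in MCAO against sham.

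Of the 5 transcription factors of the response, 1 was called higher in VEGF than in sham and 2 in MCAO than in sham. Irf7, which amplifies interferon production, stood at -0.46, -0.82 and -2.77 on the VEGF arrays and at 0.69, -1.24 and -0.60 on the MCAO arrays, against -3.97, -3.51 and -4.17 in sham. VEGF array 3 was the lowest ischaemic array, yet still above sham. The difference was 2.53 ± 0.66 in VEGF against sham, which did not pass (limma, adjusted p = 0.089), and 3.50 ± 0.66 in MCAO against sham, which did (adjusted p = 0.0305). Irf1, a factor induced strongly by interferon gamma, stood at 2.60, 1.28 and 1.75 on the VEGF arrays and at 1.84, 1.14 and 1.45 on the MCAO arrays, against -0.15, 0.06 and 0.08 in sham. Here the highest array was a VEGF array, and Irf1 rose by 1.88 ± 0.34 in VEGF against sham (limma, adjusted p = 0.0286), with 1.48 ± 0.34 in MCAO against sham (adjusted p = 0.0614). A second Irf1 probe was too dim to pass the filter and gave 0.71 and -0.02 in the same comparisons.

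Irf9 and Stat2 are parts of the ISRE-binding complex. Irf9 was at 1.64 in VEGF against sham, not called, and rose by 1.86 ± 0.35 in MCAO against sham. Stat2 was at 0.51 and 0.88 and was called in neither comparison. Irf8, a factor of microglia and other myeloid cells, was at 1.86 in VEGF against sham and 1.79 in MCAO against sham, and was called in neither.

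The Ifit family, whose proteins bind viral RNA and block its translation, had 0 of 3 members called in VEGF against sham (3 at an unadjusted p under 0.05) and 2 of 3 in MCAO against sham. Ifit3 stood at 2.48, 2.57 and 1.00 on the VEGF arrays and at 2.81, 2.09 and 2.89 on the MCAO arrays, against -0.38, 0.79 and -0.25 in sham. VEGF array 3 came nearest to sham array 2, without overlap. Ifit3 was at 1.97 ± 0.49 in VEGF against sham (limma, adjusted p = 0.0816) and rose by 2.55 ± 0.49 in MCAO against sham (adjusted p = 0.0329). Ifit2 rose by 1.30 ± 0.27 in MCAO against sham. Ifit1, with 2 ISRE cores like Ifit3, was at 1.69 in VEGF against sham and 2.26 in MCAO against sham and was not called. Its level of -1.70 on VEGF array 3 lay below that of -1.61 on sham array 2.

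The Oas family, which makes the oligoadenylates that switch on RNase L, had 1 of 5 members called in VEGF against sham and 4 of 5 in MCAO against sham. Oasl1, a member without this enzyme activity that restrains Irf7 translation in mouse, stood at 1.32, 0.09 and -1.26 on the VEGF arrays and at 2.31, -0.39 and 1.17 on the MCAO arrays, against -4.34, -2.58 and -3.47 in sham. Its spread among ischaemic arrays, 3.58, was the widest of all members. Oasl1 was at 3.51 ± 0.83 in VEGF against sham (limma, adjusted p = 0.0725) and rose by 4.50 ± 0.83 in MCAO against sham (adjusted p = 0.0288). Oas3, whose promoter holds the ISRE core shown above, stood at -3.99, -4.00 and -4.76 on the VEGF arrays and at -2.60, -4.99 and -3.20 on the MCAO arrays.

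No sham array had Oas3 well above background, so its difference is a bound: at least 6.21-fold higher in VEGF than in sham (limma, adjusted p = 0.0341) and at least 9.76-fold higher in MCAO than in sham (adjusted p = 0.0158). For such a bound the sham level of each array was taken as the dimmest signal that still passed the background flag on it, or as the probe's own signal where that was brighter. The adjusted p beside a bound belongs to the fitted difference, which uses the sham signals as they are, and does not test the bound. Oas3, Slfn1 and Slfn4 passed the filter on dim probes only through the ischaemic groups. With 1 array left out the Oas3 bound lay between 5.56 and 7.40 in VEGF and between 6.92 (without MCAO array 1) and 15.8 (without MCAO array 2) in MCAO. With normexp background correction in place of Agilent's, the Oas3 log2 differences were 1.04 and 1.30, below its bounds, and neither passed (limma, adjusted p = 0.236 and 0.144). Oas1a and Oasl2 rose in MCAO against sham by 3.61 ± 0.75 and 2.84 ± 0.58. Oas2 was at 2.41 in VEGF against sham and 2.82 in MCAO against sham, and was not called.

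Among the other antiviral effectors, 1 of 5 measured genes was called in VEGF against sham and 3 of 5 in MCAO against sham. Bst2, or tetherin, which holds budding viruses at the cell surface, stood at 2.39, 1.61 and 0.71 on the VEGF arrays and at 2.48, 2.55 and 2.81 on the MCAO arrays, against -0.69, 0.10 and -1.02 in sham. The MCAO arrays were close together, and the VEGF arrays were lower and further apart. Bst2 rose by 2.10 ± 0.44 in VEGF against sham (limma, adjusted p = 0.0478) and by 3.15 ± 0.44 in MCAO against sham (adjusted p = 0.00941). In VEGF against sham the call was lost with normexp correction, with no filter on dim probes and with only these 2 groups in the fit (adjusted p = 0.0597 to 0.0711).

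Rsad2, or viperin, which makes a nucleotide analogue that stops viral RNA synthesis, and Cmpk2, its neighbour on chromosome 12 that supplies nucleotides for that reaction, were both measured. Rsad2 was at 2.00 in VEGF against sham and rose by 2.87 ± 0.56 in MCAO against sham. Cmpk2 stood at -0.86, 0.34 and 0.24 on the VEGF arrays and at -0.49, 0.03 and 0.65 on the MCAO arrays, against 0.38, 0.59 and 0.56 in sham. It was the only member with a lower mean in the ischaemic groups, at -0.60 ± 0.38 in VEGF against sham (limma, adjusted p = 0.343) and -0.44 ± 0.38 in MCAO against sham (adjusted p = 0.511), and it was called in neither. A second Cmpk2 probe gave -0.71 and -0.56. Without array 1 of each ischaemic group the Cmpk2 differences were -0.22 and -0.17. No ISRE core was found in the Cmpk2 window, and 1 was found in that of Rsad2. Isg20, an RNA exonuclease, rose by 2.38 ± 0.45 in MCAO against sham, and Samd9l was at 0.51 and 0.74 and was not called.

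All 3 Ifitm genes, which encode membrane proteins that block virus entry, were called higher in each comparison with sham. Ifitm1 stood at 4.29, 2.88 and 3.77 on the VEGF arrays and at 3.21, 2.82 and 3.38 on the MCAO arrays, against -0.04, -0.08 and -0.28 in sham. Its lowest ischaemic array lay far above its highest sham array. Ifitm1 rose by 3.78 ± 0.34 in VEGF against sham (limma, adjusted p = 0.00152) and by 3.27 ± 0.34 in MCAO against sham (adjusted p = 0.00268), and had no ISRE core in its promoter window. Ifitm3, the best studied of the family, stood at 5.50, 3.95 and 3.83 on the VEGF arrays and at 5.59, 4.20 and 4.27 on the MCAO arrays, against 1.40, 1.51 and 0.91 in sham. Array 1 of each ischaemic group was more than 1 unit above the others. Ifitm3 rose by 3.16 ± 0.52 in VEGF against sham (limma, adjusted p = 0.02) and by 3.42 ± 0.52 in MCAO against sham (adjusted p = 0.0138). Ifitm2 rose by 2.53 ± 0.50 and 2.40 ± 0.50 in the same comparisons.

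The Isg15 system comprised Isg15, a ubiquitin-like protein that is attached to other proteins, and Usp18, the protease that removes it and also restrains receptor signalling. Neither was called in VEGF against sham (2 of 2 had an unadjusted p under 0.05) and both were called in MCAO against sham. Isg15, with 3 ISRE cores, stood at 3.22, 2.52 and 1.70 on the VEGF arrays and at 3.63, 2.65 and 3.74 on the MCAO arrays, against -0.20, 1.30 and -0.01 in sham. Sham array 2 was the highest sham array for both genes. Isg15 was at 2.12 ± 0.53 in VEGF against sham (limma, adjusted p = 0.0807) and rose by 2.98 ± 0.53 in MCAO against sham (adjusted p = 0.024). Usp18 stood at 0.90, 0.44 and -1.37 on the VEGF arrays and at 1.58, 0.10 and 1.02 on the MCAO arrays, against -2.72, -1.48 and -2.58 in sham. VEGF array 3, at -1.37, was nearly level with sham array 2, at -1.48. Usp18 was at 2.25 ± 0.64 in VEGF against sham (limma, adjusted p = 0.106) and rose by 3.16 ± 0.64 in MCAO against sham (adjusted p = 0.0394). Its MCAO call was lost with normexp correction (adjusted p = 0.0559) and with no filter on dim probes (adjusted p = 0.0514).

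The interferon-inducible GTPases had 3 of 7 members called in VEGF against sham and 4 of 7 in MCAO against sham. Gbp2, a guanylate-binding protein that coats pathogen vacuoles, stood at 1.87, 2.01 and 1.74 on the VEGF arrays and at 1.67, 1.68 and 2.40 on the MCAO arrays, against -0.78, -0.67 and -0.70 in sham. It was among the least variable members, with a range of 0.74 over the 6 ischaemic arrays and 0.12 over the sham arrays, and arrays 1 did not stand apart for it. Gbp2 rose by 2.59 ± 0.23 in VEGF against sham (limma, adjusted p = 0.00143) and by 2.63 ± 0.23 in MCAO against sham (adjusted p = 0.00132). Irgm1, a regulator of the immunity-related GTPases, had the narrowest range over the ischaemic arrays, 0.63, and rose by 2.09 ± 0.21 and 2.23 ± 0.21. Igtp rose by 1.71 ± 0.31 and 1.83 ± 0.31, and Gbp3 was at 1.78, not called, and rose by 2.10 ± 0.38. Gbp5, Gbp6 and Iigp1 were called in neither comparison, at 0.61, 2.16 and 0.48 in VEGF against sham and 1.07, 1.88 and 0.89 in MCAO against sham.

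The Schlafen family, known for restraining growth of lymphocytes and myeloid cells in mouse, held the largest fitted difference, that of Slfn4, and had 3 of 5 members called in each comparison with sham. Slfn4, a gene of mouse monocytes and macrophages, stood at -1.62, -1.09 and -2.21 on the VEGF arrays and at 0.44, -3.13 and 0.08 on the MCAO arrays. On the sham arrays it was not well above background, with signals of -8.91, -9.04 and -9.00 that give only a bound. It therefore passed the filter on dim probes only through the ischaemic groups. Slfn4 was at least 44.2-fold higher in VEGF than in sham (limma, adjusted p = 0.0041) and at least 75.2-fold higher in MCAO than in sham (adjusted p = 0.00241). With 1 array left out the Slfn4 bound lay between 36.5 and 53.8 in VEGF and between 47.8 (without MCAO array 1) and 165 (without MCAO array 2) in MCAO. With normexp correction the Slfn4 log2 differences were 2.99 and 3.68, below its bounds, and the first of these did not pass (limma, adjusted p = 0.0869 and 0.0424).

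Slfn1, also not well above background in sham, was at least 7.58-fold higher in VEGF than in sham (limma, adjusted p = 0.0063) and at least 7.81-fold higher in MCAO than in sham (adjusted p = 0.00549). In MCAO the Slfn1 bound was 5.03-fold without MCAO array 1 and 13.3-fold without MCAO array 2. With normexp correction the Slfn1 log2 differences were 1.21 and 1.19, below its bounds, and passed in neither comparison (limma, adjusted p = 0.187 and 0.18). Slfn2, measured on all 9 arrays, rose by 4.06 ± 0.58 in VEGF against sham and by 4.18 ± 0.58 in MCAO against sham. Slfn8 was at 2.37 and 2.76 and was not called. Slfn5 was well above background on 2 of 3 sham arrays, overlapped between the groups, and was at 1.45 in VEGF against sham and 1.49 in MCAO against sham. Without array 1 of each ischaemic group the Slfn5 values were 0.72 and 0.41.

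Of the 7 remaining genes, 0 were called in VEGF against sham (7 at an unadjusted p under 0.05) and 2 were called higher in MCAO against sham, and all 7 had higher means in both ischaemic groups. Xaf1, a factor that counters the apoptosis inhibitor XIAP, stood at 1.61, 1.12 and 0.01 on the VEGF arrays and at 2.31, 0.99 and 1.51 on the MCAO arrays, against -1.71, -0.81 and -1.36 in sham. The groups did not overlap with sham. Xaf1 was at 2.21 ± 0.48 in VEGF against sham (limma, adjusted p = 0.0565) and rose by 2.90 ± 0.48 in MCAO against sham (adjusted p = 0.019). Trim30a, a ubiquitin ligase family member that dampens inflammatory signalling in mouse, was at 2.30 in VEGF against sham and rose by 2.66 ± 0.57 in MCAO against sham. Ifi27l2a missed the threshold in each comparison despite its size, at 3.90 ± 0.83 in VEGF against sham (adjusted p = 0.0517) and 3.82 ± 0.83 in MCAO against sham (adjusted p = 0.0504). Ifi44, Ifi35, Parp14 and Lgals3bp were at 1.84 to 2.59 in VEGF against sham and 1.99 to 3.27 in MCAO against sham and were called in neither.

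**Figure D4:**
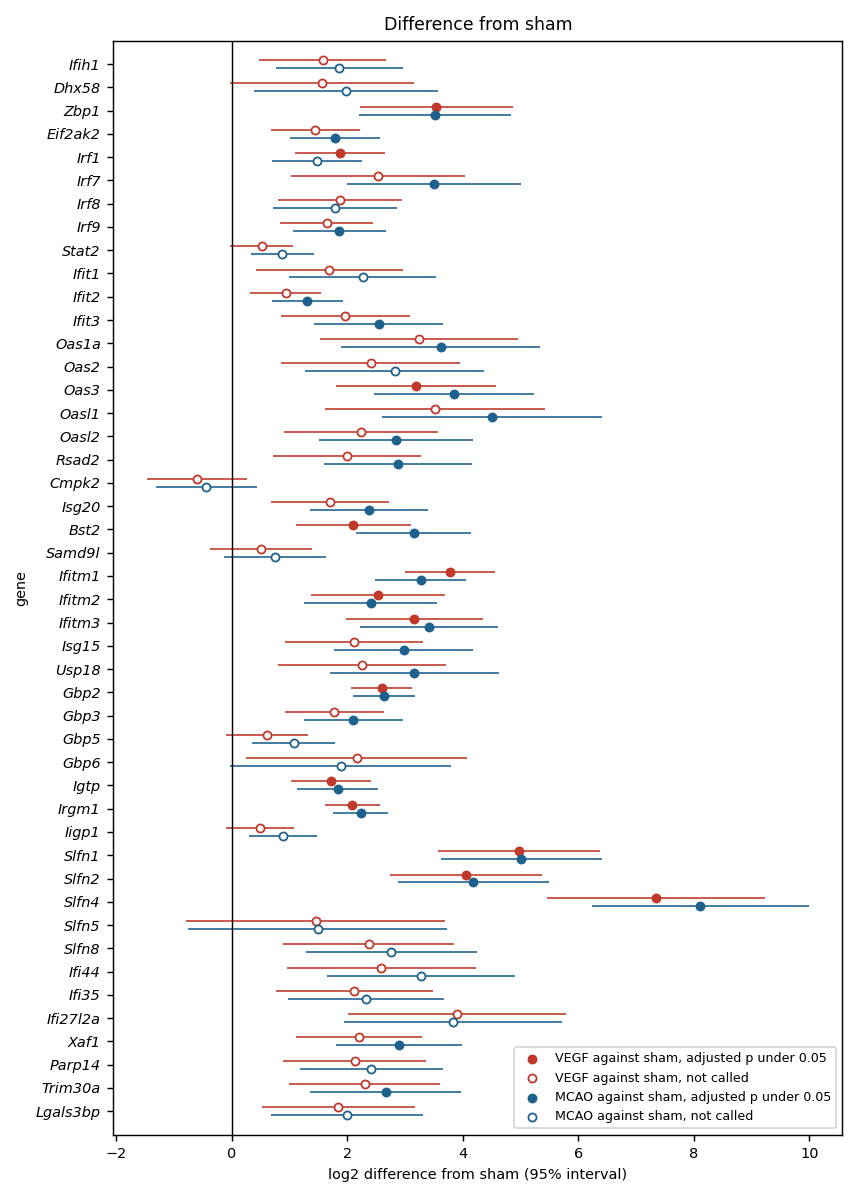
Log2 difference from sham (horizontal axis, with 95% intervals of the fit) for the 46 measured members (vertical axis), red for VEGF and blue for MCAO; filled points passed an adjusted p of 0.05. All differences except those of Cmpk2 lie above 0, and Slfn4 lies furthest right; its position, like those of Slfn1 and Oas3, rests on sham signals not well above background.

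The ISRE core was present both in promoters of called genes and in those of other members. Of the 25 genes that were called in MCAO against sham and are in the promoter table, 14 held the core, and of the 13 that were not called, 6 held it.

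The interferons themselves and their receptors were followed by a list of their own. Of 19 interferon genes, 13 were tested and 0 were called in VEGF against sham or in MCAO against sham. At an unadjusted p under 0.05, 2 were higher in VEGF and 1 in MCAO, and 0 were lower, shares of 13 genes that are near the 12% and 12.1% of all targets. Ifnb1, the type I interferon made by many cell types, stood at -4.35, -6.26 and -6.41 on the VEGF arrays and at -5.03, -5.96 and -5.76 on the MCAO arrays. On no sham array was it well above background, so it passed the filter on dim probes only through the ischaemic groups. It was at least 2.69-fold higher in VEGF than in sham (limma, adjusted p = 0.0683) and at least 2.87-fold higher in MCAO than in sham (adjusted p = 0.0565). Its adjusted p passed in both comparisons with quantile normalization (0.0384 and 0.0435) and in the authors' deposited value table (0.0376 and 0.0431). It also passed without array 1 of each ischaemic group, at log2 differences of 1.64 and 2.12 (limma, adjusted p = 0.00774 and 0.00286). Those differences use sham signals not well above background. Without VEGF array 1 alone its VEGF bound was 1.70-fold. With normexp correction Ifnb1 was at log2 differences of 0.61 and 0.38, below its bounds, and passed in neither (limma, adjusted p = 0.389 and 0.626). Ifng, interferon gamma, was at 1.1 ± 0.38 in VEGF against sham (adjusted p = 0.148) and 0.38 ± 0.38 in MCAO against sham (adjusted p = 0.572), the last of which was 0.19 without array 1 of each ischaemic group.

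Of 6 receptor chains, 0 were called in either limma comparison. At an unadjusted p under 0.05, 4 were higher and 0 lower in VEGF than in sham (12% and 11.4% of all targets). In MCAO, 4 were higher and 1 lower than in sham (12.1% and 9.28% of all targets). Ifnar1 was at 0.21 ± 0.23 in VEGF against sham and 0.10 ± 0.23 in MCAO against sham, and Ifnar2 at 0.95 ± 0.39 and 0.90 ± 0.39. Ifngr1 was at 1.19 ± 0.40 and 0.94 ± 0.40. Ifngr2 was at -0.31 ± 0.18 and -0.42 ± 0.18, with all ischaemic arrays below all sham arrays. Groups without overlap in that direction were found for 23.9% of all targets in VEGF against sham and 20.7% in MCAO against sham. Ifnlr1, of the lambda interferon receptor, was at 1.48 ± 0.38 and 1.70 ± 0.38 (limma, adjusted p = 0.085 and 0.0549), and Il10rb, its partner chain, at 1.26 ± 0.44 and 1.28 ± 0.44. Without array 1 of each ischaemic group, Ifnar2 was smaller, at 0.46 and 0.73, as was Ifngr1, at 0.76 and 0.65, Ifnar1 was at 0.065 and 0.026, and Ifnar2 and Ifngr1 passed in both comparisons (adjusted p = 0.0491 and 0.0281 in VEGF against sham, 0.0124 and 0.0384 in MCAO against sham).

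Of 13 genes that carry the signal from the receptors, 2 were called higher in each comparison with sham and 0 lower. Stat3, which also serves the interleukin 6 family of cytokines, stood at 4.76, 4.09 and 3.83 on the VEGF arrays and at 4.64, 3.89 and 4.01 on the MCAO arrays, against 1.88, 2.21 and 2.15 in sham. It rose by 2.14 ± 0.30 in VEGF against sham (limma, adjusted p = 0.0106) and by 2.10 ± 0.30 in MCAO against sham (adjusted p = 0.0103). Ptpn2, a phosphatase that switches off JAK and STAT proteins, rose by 1.05 ± 0.22 and 1.13 ± 0.22 (adjusted p = 0.0454 and 0.0313). As the mean of its probes, Ptpn2 was at 0.49 and 0.62 and passed in neither comparison (adjusted p = 0.161 and 0.107).

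Of 14 tested genes of nucleic acid sensing outside the member list, 1 was called higher in VEGF against sham and 2 in MCAO against sham, with 0 lower. Ticam1, the adaptor TRIF of Toll-like receptors, rose by 1.29 ± 0.22 in VEGF against sham (limma, adjusted p = 0.0203) and by 1.14 ± 0.22 in MCAO against sham (adjusted p = 0.0309). Ikbke, a kinase that activates interferon regulatory factors, was at 1.89 in VEGF against sham (limma, adjusted p = 0.0887) and rose by 2.58 ± 0.49 in MCAO against sham (adjusted p = 0.0315). With normexp correction Ikbke was at 1.54 in MCAO against sham and did not pass (adjusted p = 0.088).

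The comparison of VEGF with MCAO addresses the question in the study's title, what VEGF changes after ischaemia. No member was called in either direction: limma with Benjamini-Hochberg adjustment gave 0 members higher and 0 lower, where 0.00649% of all targets were called lower and 0% higher. Without VEGF array 1 and MCAO array 1 the member counts were 0 and 0 as well, where 0.00649% of all targets were called higher and 0.00324% lower. At an unadjusted p under 0.05, 1 member was lower and 0 higher, against 2.29% and 0.483% of all targets. Of the 46 members, 39 had a lower mean in VEGF than in MCAO, and 46.6% of all targets had a higher one. In the same comparison 6 of 6 oligodendrocyte markers had a lower mean in VEGF (median -0.62). A higher mean was found for 8 of 8 microglia markers (median 0.29) and 7 of 7 astrocyte markers (median 0.22). In every other marker list the means went both ways. The oligodendrocyte, microglia and astrocyte medians each differed most between VEGF array 1 and MCAO array 1, the arrays that stood apart. Between arrays 2 the microglia medians were nearly level. Between arrays 3 the oligodendrocyte median was higher in VEGF. Of all these markers 0 were called, and their part in the members' differences was not tested. The median log2 difference of the members was -0.35, against -0.02 for all targets, with a range from -1.05 for Bst2 to 0.51 for Ifitm1. Leaving out VEGF array 3 moved that median to 0.03, leaving out VEGF array 1 moved it to -0.77, leaving out MCAO array 1 moved it to -0.11, and leaving out MCAO array 2 moved it to -0.67.

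Bst2 was the member with the smallest p and the only one whose groups did not overlap, a property of 3.48% of all targets in that direction and 2.33% in the other. Its VEGF arrays stood at 2.39, 1.61 and 0.71 and its MCAO arrays at 2.48, 2.55 and 2.81, a difference of -1.05 ± 0.44 (95% interval -2.04 to -0.05; limma, adjusted p = 1.00). Its unadjusted p in the limma fit was 0.0416. Without VEGF array 3 the difference of Bst2 was -0.62, with an unadjusted p of 0.148 in that fit. The highest VEGF array and the lowest MCAO array were nearly level. Isg15 was at -0.86 ± 0.53 (-2.06 to 0.34), Rsad2 at -0.87 ± 0.56 (-2.16 to 0.41), Isg20 at -0.69 ± 0.45 (-1.71 to 0.34) and Iigp1 at -0.40 ± 0.26 (-0.99 to 0.18), and for these 4 genes the groups overlapped. The intervals for Rsad2 and Isg15 include a 4-fold lower level in VEGF and no difference, so 3 arrays per group did not tell these apart.

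Deviations from the group means correlated above 0 between VEGF and MCAO arrays of the same number, though not for these pairs alone, and differences within numbers went both ways. For number 1, 34 members were lower in the VEGF array (median difference -0.24), for number 2, 36 members were higher (0.33), and for number 3, 42 members were lower (-0.95). The median difference of all targets in the same pairs was -0.08, 0.01 and 0.04. Bst2 was at -0.09, -0.95 and -2.10 within numbers 1, 2 and 3, and Isg15 at -0.41, -0.12 and -2.04. With the replicate number as a block among the 6 ischaemic arrays, 0 members were called and the unadjusted p of Bst2 was 0.07.

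**Figure D5:**
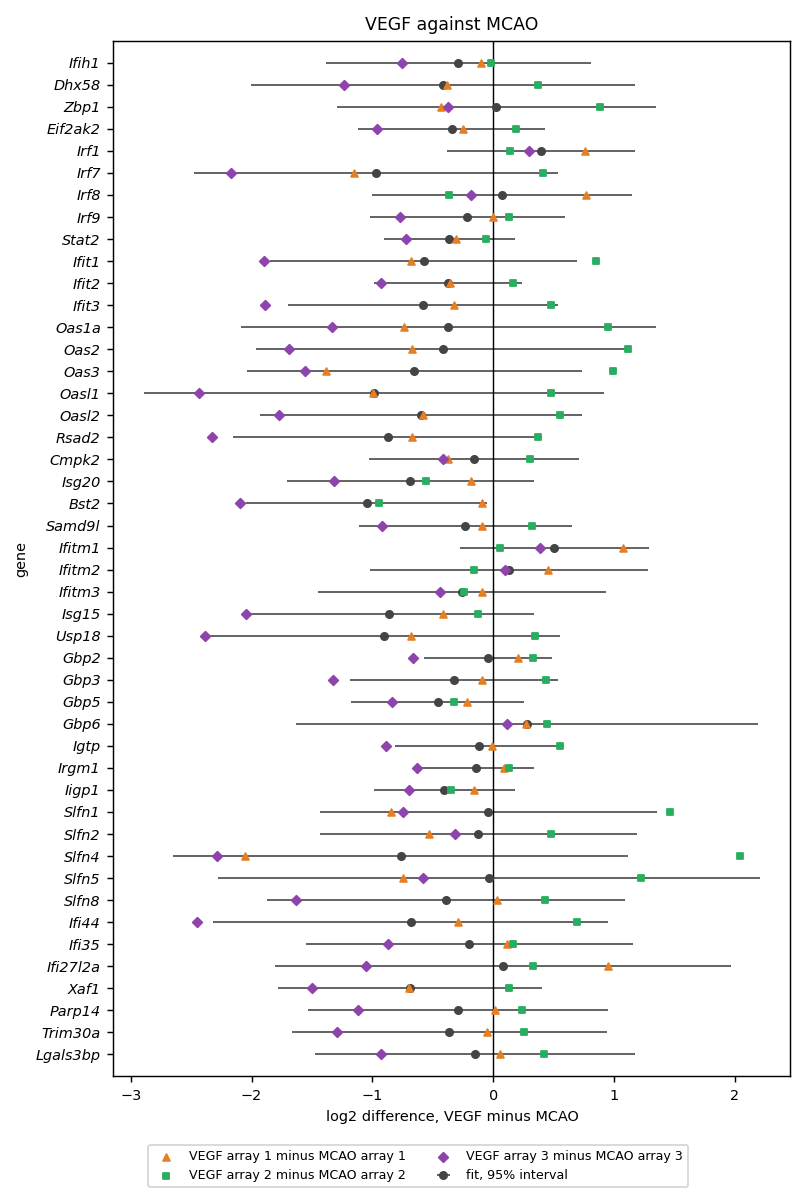
Log2 difference of VEGF minus MCAO (horizontal axis) for the 46 measured members (vertical axis); black points and bars give the fit with its 95% interval, and coloured markers the difference between arrays of the same number. Most black points lie left of 0 with intervals that include it; purple diamonds (number 3) lie mostly left and green squares (number 2) mostly right.

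The median member varied more among the ischaemic arrays than the median target. The range of a member over the 6 ischaemic arrays had a median of 2.09, against 1.14 for all targets, and over the 3 sham arrays 0.62 against 0.34. Narrow ranges belonged to Irgm1 (0.63), Gbp2 (0.74), Stat2 (0.81), Iigp1 (0.90) and Igtp (0.92). Among the GTPases, Gbp6 had a wide range of 3.05. Wide ranges belonged to Oasl1 (3.58), Slfn5 (3.57), Slfn4 (3.57), Ifi27l2a (3.52) and Irf7 (3.46). Among the 6 ischaemic arrays, VEGF array 3 was the lowest for 31 members and MCAO array 2 for 10. VEGF array 1 was the highest for 10 members, MCAO array 1 for 26 and MCAO array 3 for 10. VEGF array 1 and MCAO array 1 are the arrays that stood apart in neuron and endothelial markers, and the part of that in the members' levels was not tested.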

How the data were processed

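Brain RNA was measured on 9 single-colour Agilent arrays, from 3 independent experiments that used different mice, per the labels; p-values measure the spread between these arrays. Each deposited scanner file gives an intensity for each of 62976 spots, with 3671 controls among them. Background had been subtracted by Feature Extraction 10.7.1.1, per the file headers, and the processed intensity carries no scaling between arrays. Per the file headers it also gives a detrending factor as a ratio per spot, which was divided out on all arrays but MCAO array 1. The authors also deposited a value table whose scale is not stated and which behaves as log2 values made alike between arrays, with column medians of 6.98; it was used as an alternative. No column was left unmapped to a sample.

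Processed intensities were taken to log2, spots of a probe were averaged, and the 75th percentile of each array over non-control probes was subtracted. Of 55681 probes, 43921 passed the filter, which asked for a signal well above background on the 3 arrays of 1 group or more. The probe with the highest mean stood for a gene; 14 members had several probes, which differed in sign for 1 (Irf1). Gene symbols came from RefSeq accessions through a RefSeq table of GRCm38.p6. Groups were compared in 1 limma 3.58.1 fit of all 9 arrays (R 4.3.3), with two-sided moderated tests adjusted by Benjamini-Hochberg over 30837 targets at 0.05; values after ± are standard errors. Of its 8.48 degrees of freedom, 2.48 came from the prior. For MCAO against sham the standard error had a median of 0.31 log2 units and the 95% half-width one of 0.71. The number of arrays limits the precision.

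The members and lists were chosen with earlier results of these data known, so no list was tested as a set. Described with statistics were, in each role group, the called member with the largest difference and the one with the smallest adjusted p without overlap, the 5 members with the smallest p in VEGF against MCAO, and the called pathway genes with Ifnb1, Ifng and the receptor chains; the others are given by their values, and 1 gene that the rule names is not reported here. Deviations from the group means correlated at 0.587, 0.224 and 0.558 between MCAO and VEGF arrays of the same number, each above 0.1, so the numbers were taken to pair these groups; the values of MCAO array 2 with VEGF array 3 (0.392) and MCAO array 3 with VEGF array 2 (0.234) were also above that of number 2, and the labels do not say what a number marks. Sham arrays did not pair. Alternatives were normexp background correction (offset 50), quantile normalization, the deposited value table, a recomputed signal, other filters, the mean of a gene's probes, only the groups compared, a replicate block and leaving out arrays. The block among the ischaemic arrays alone, leaving discrepant probes out of the dimmest signal behind a bound, bounds with 1 array left out and marker sums without the brightest marker were chosen after seeing the data.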

Additional observations from a re-analysis of the deposited data

How the results depend on the processing

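Across background correction, normalization, signal, filter and probe settings the counts of members called higher stayed within 1.5 times of 13 in VEGF against sham (10 to 16) and 27 in MCAO against sham (20 to 29). With only the 2 groups compared in the fit the counts were 12 and 37. The replicate number as a block gave 12 and 31 called members; the numbers do not pair sham with the ischaemic groups. Of the 13 members called in VEGF against sham, 10 were called with the block; Bst2 (adjusted p = 0.0533) and Oas3 (0.0565) were among those lost, and the signalling gene Ptpn2 was lost too (0.0541), while Ifnb1 passed (0.0223 in VEGF and 0.0182 in MCAO against sham). Without VEGF array 1 and MCAO array 1, 30 and 41 members were called. Leaving out 1 array at a time gave 5 to 27 called members in VEGF against sham, 5 to 38 in MCAO against sham, 0 in VEGF against MCAO, and a median member difference of 1.70 to 2.53, 2.26 to 2.77 and -0.77 to 0.03 in those comparisons. In VEGF against MCAO, 0 members were called in every setting run, including the 2 fits with the replicate block. Without sham array 1, 2 genes that were not called changed sign in MCAO against sham, Ifnar1 to -0.058 and Ifng to -0.0077; over all single arrays left out their ranges were -0.058 to 0.20 and -0.0077 to 0.69. For single genes described with statistics, 16 calls were lost and 13 gained over the settings that do not leave out a single array, and 95 were lost and 3 gained over those that leave 1 array out. The causes were not tested.

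Levels in sham of Oas3, Slfn1, Slfn4 and Ifnb1 are limited by background. Normexp correction gave differences below the bound for each of these genes, so the bounds hold only for Agilent's background subtraction. The bounds of the 3 members among them lie above the median member difference, 2.12 in VEGF against sham and 2.48 in MCAO against sham. Setting these members at their bounds therefore could not move that median.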
